A study of Mus musculus with 8 samples.

Results

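Among 15978 rows of the authors' deposited table, 37 rows belonged to small structured RNAs or to genes named as hosts of small RNAs. They were chosen by name, with earlier results of these data known. The rule took noncoding RefSeq rows whose symbol begins with Mir, Snora, Snord, Scarna, Snhg, Rnu, Rn7s or Rny, without Mirg. Added to these were Rmrp, Rpph1, Terc, Gas5 and Vaultrc5. The 37 rows stood for 35 genes, because Snhg14 and Mir100hg have 2 rows each. They were 24 host gene rows, 3 box H/ACA snoRNAs, 3 box C/D snoRNAs, 2 scaRNAs, the 4 RNAs Rmrp, Rpph1, Terc and Vaultrc5, and Mirt1, a long noncoding RNA that begins with Mir but is neither a host gene nor a small RNA. The symbols Rnu, Rn7s and Rny and the microRNA precursors had 0 rows among those analysed here.

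The table compares the brains of 5 male C9-BAC mice and 3 male wild-type mice, all on an SJL/Bl6 background. C9-BAC mice carry a bacterial artificial chromosome, a large cloned piece of DNA, with the human C9ORF72 gene and 500 G4C2 repeats. Expanded forms of this repeat cause amyotrophic lateral sclerosis and frontotemporal dementia in people, and the comparison addresses how the transgene bears on the brain transcriptome. The labels name no brain region, age, batch or promoter of the transgene. The labels number the samples 1 to 8 across both genotypes, each with its own number, and where samples did not come from separate animals the p-values measure only their technical spread.

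The table gives 1 mean, 1 fold change and 1 p for each row over all 8 mice, so values per mouse, the overlap of the groups and the depth of each library were not analysed here. The mean normalized count is a mean of size-factor-scaled counts that the authors computed. Which genotype is the numerator of the log2 fold change is not stated, so signs are printed as deposited and no gene is called higher in either genotype. The highest standard error of the authors' deposited table was 0.110, as happens when a prior shrinks fold changes, which no source used here records. Shrunken fold changes understate differences, and then a small standard error does not mean a precise estimate.

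Brain cell markers were present. In the authors' deposited table, all 6 neuron markers had mean normalized counts between 1806 and 13868, and all 4 astrocyte, 4 oligodendrocyte, 4 microglia and 3 endothelium markers had a row. Of 5 genes of other organs, 1 had a row, Myh6, at 7.85. Globin genes and Alas2, markers of blood, were at 26.7 to 1183 in the authors' deposited table, and their part in the results was not tested. In bulk brain RNA, fewer cells of a type and less RNA per cell cannot be told apart.

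Small nucleolar RNAs (snoRNAs) guide the chemical modification of ribosomal RNA: box C/D snoRNAs direct 2′-O-methylation, and box H/ACA snoRNAs direct pseudouridylation. ScaRNAs do the same for spliceosomal RNAs in Cajal bodies. In mammals most of them are cut out of the introns of host genes, so that a host transcript and its small RNA are made by 1 act of transcription and then part ways. Many host transcripts of the Snhg family carry no conserved protein and are degraded by nonsense-mediated decay. Rpph1 is the RNA of RNase P, which removes the 5′ leader of tRNA precursors, Rmrp is the RNA of RNase MRP, which cleaves ribosomal RNA precursors, and Terc is the template RNA of telomerase.

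The sequences below, from GENCODE vM21 on build GRCm38 (also called mm10), are those of the members that the results describe most closely. Rpph1 lies on the minus strand at chr14:50807449-50807767 and Rmrp on the minus strand at chr4:43492788-43493058; neither has an intron, and of Rpph1 the first 300 bases are shown. Snord15a (chr7:99482785-99482932) and Snord15b (chr7:99479563-99479707) lie on the minus strand inside Rps3, and Snord17 (chr2:144265982-144266202) on the minus strand inside Snx5. Snord17 is shown over its RefSeq bounds of 221 nt, while its GENCODE transcript has 238 nt. Capitals mark the C box TGATGA and the last D box CTGA, the letters that bind the box C/D proteins. Snora23 (chr7:110046364-110046547, plus strand) and Scarna13 (chr12:105031075-105031349, minus strand) have an ACA near their 3′ end in capitals. In Scarna13, 3 bases follow it. The last 6 bases of Snora23 hold 2 overlapping ACAs, and the capitals mark the last, with 1 base after it, which need not be the ACA box.
Rpph1: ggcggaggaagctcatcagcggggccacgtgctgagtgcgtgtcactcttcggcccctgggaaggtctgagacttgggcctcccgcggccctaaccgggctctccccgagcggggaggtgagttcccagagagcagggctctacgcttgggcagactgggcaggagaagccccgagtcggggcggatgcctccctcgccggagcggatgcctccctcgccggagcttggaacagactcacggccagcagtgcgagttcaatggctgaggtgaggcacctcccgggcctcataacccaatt
Rmrp: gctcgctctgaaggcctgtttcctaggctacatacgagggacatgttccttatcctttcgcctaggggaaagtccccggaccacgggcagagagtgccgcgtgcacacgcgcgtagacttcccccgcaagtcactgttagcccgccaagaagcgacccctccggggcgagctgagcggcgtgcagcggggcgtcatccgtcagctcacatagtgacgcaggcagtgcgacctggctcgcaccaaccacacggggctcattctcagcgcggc
Snord15a: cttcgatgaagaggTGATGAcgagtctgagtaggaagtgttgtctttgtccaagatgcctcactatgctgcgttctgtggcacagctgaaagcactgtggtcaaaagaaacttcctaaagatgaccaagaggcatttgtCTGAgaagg
Snord15b: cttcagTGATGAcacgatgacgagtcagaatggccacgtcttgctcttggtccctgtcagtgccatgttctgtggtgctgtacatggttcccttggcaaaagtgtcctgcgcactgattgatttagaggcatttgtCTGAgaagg
Snord17: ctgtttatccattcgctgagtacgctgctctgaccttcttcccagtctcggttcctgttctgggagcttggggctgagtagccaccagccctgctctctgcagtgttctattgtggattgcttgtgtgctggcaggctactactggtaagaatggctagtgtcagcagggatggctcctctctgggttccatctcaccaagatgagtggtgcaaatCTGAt
Snora23: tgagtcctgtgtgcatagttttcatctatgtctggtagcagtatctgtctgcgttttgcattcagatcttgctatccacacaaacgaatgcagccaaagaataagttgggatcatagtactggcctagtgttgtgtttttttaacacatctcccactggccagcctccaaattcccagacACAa
Scarna13: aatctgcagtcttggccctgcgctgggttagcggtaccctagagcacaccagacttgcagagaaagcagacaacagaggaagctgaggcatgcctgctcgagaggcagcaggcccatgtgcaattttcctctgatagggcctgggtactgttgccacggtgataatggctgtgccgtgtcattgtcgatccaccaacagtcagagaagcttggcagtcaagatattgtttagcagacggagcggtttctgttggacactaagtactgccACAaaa

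The box letters, read on the RNA's own strand, are a description and not a proof of a site. TGATGA stood in 2 of the 3 box C/D members, all but Snord17, and in 75.5% of 98 reference Snord genes. Snord17 was read over 221 nt of a GENCODE transcript of 238 nt, and the bases outside were not searched. CTGA stood in 3 of 3 members and in 100% of the reference. An ACA within the last 6 bases was found in Snora23 and not in Snora81, against 92.9% of 42 reference Snora genes. Snora81 was read over its RefSeq bounds of 164 nt, shorter than its GENCODE transcript of 178 nt, so its true end may not have been searched. The H box ANANNA was in both and in 100% of the reference. Snora74a, the other box H/ACA member, was not searched. Snord15a and Snord15b aligned over 162 columns with 107 identical bases, an identity of 66.0%. The members are long for their classes: only 3.06% of the reference Snord genes and 19.0% of the reference Snora genes reach 140 nt, and the medians are 84 and 132.5 nt.

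No member passed the authors' DESeq2 test between C9-BAC and wild-type brain. By that test 0 of 37 members had an adjusted p under 0.05 in the authors' deposited table, as did 0 of 15944 rows tested (0%), and the members' adjusted p was 0.9997 in every case. At an unadjusted p under 0.05 the members again gave 0, beside 239 of 15944 rows (1.50%), of which the negative ones were 0.840% of the rows tested. With the statistic scaled to its own median and spread over all rows, 4 of 37 members (10.8%) had an unadjusted p under 0.05, beside 5.11% of all rows, and 0 had an adjusted p under 0.05. The 4 were both rows of Snhg14, which are 1 gene, with Rpph1 and Snord15b. Fold changes of the 37 members in the authors' deposited table ran from 0.865 to 1.10, and the absolute statistic was under 1 in 27 of 37.

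The signs were mixed. Of the members, 15 had a positive and 22 a negative log2 fold change in the authors' deposited table, 59.5% negative (95% Wilson interval 43.5 to 73.7%), beside 52.6% of all rows and 56.2% of the 883 noncoding rows. The interval covers counting only, and members that share a transcript are not independent. The median log2 fold change in the authors' deposited table was -0.02 for the members and -0.00 for all rows, and the members' standard errors ran from 0.0459 to 0.110.

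**Figure D1:**
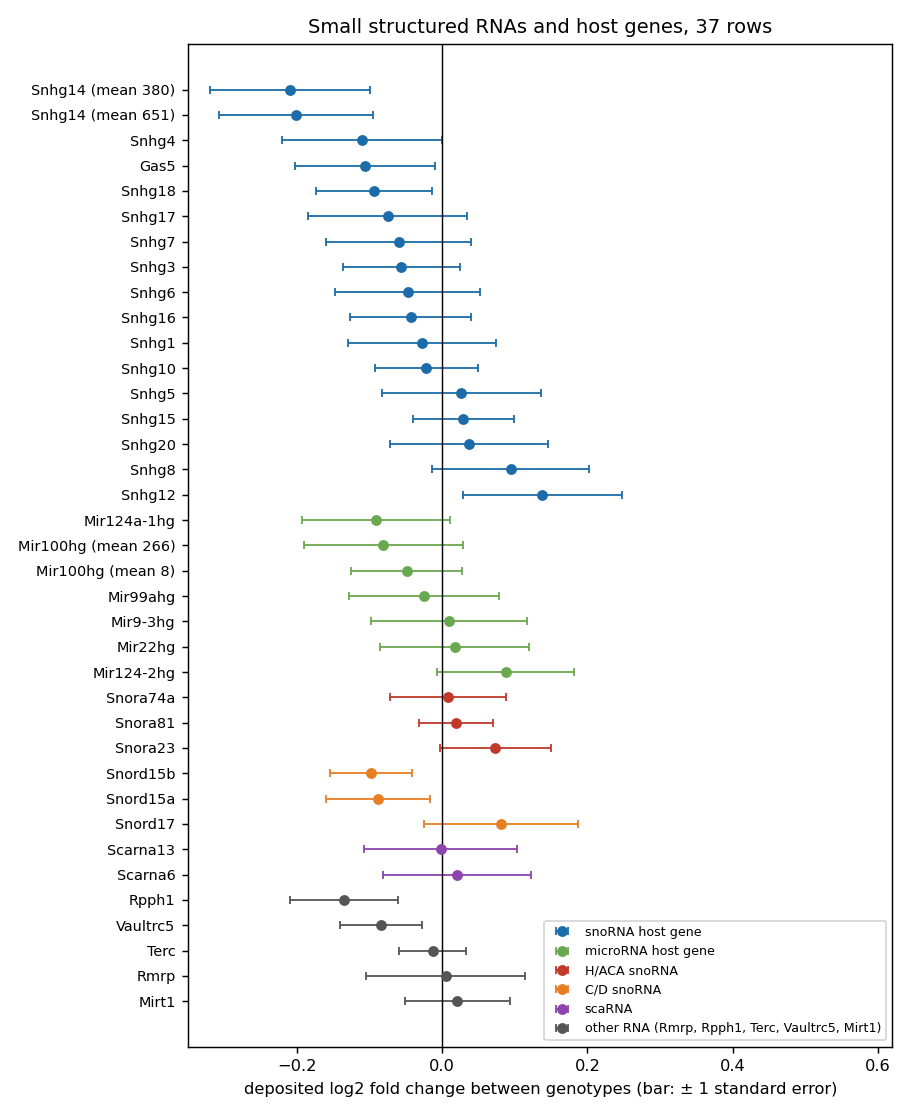
Deposited log2 fold change (x axis, sign as deposited) of the 37 members (y axis), coloured by class, with bars of 1 standard error. Only 1 member, Snhg14, has rows below -0.20, and the values of all others lie between -0.14 and 0.14.

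Host genes and small RNAs were set side by side as classes. Of 24 host rows, 8 were positive and 16 negative (66.7% negative, Wilson interval 46.7 to 82.0%) in the authors' deposited table, and of the 13 other rows, 12 small RNAs and Mirt1, 7 were positive and 6 negative (46.2%). The median log2 fold change of the hosts minus that of the small RNAs and Mirt1 was -0.05, and -0.00 once the trend of the statistic with GC content was taken off. With that trend off, 14 of 22 host rows (63.6%) and 7 of 12 small RNA and Mirt1 rows (58.3%) with a GC value were negative, beside 52.9% of all rows. The classes differ in base composition, with a median GC content of 45.4% for hosts, 51.6% for small RNAs and Mirt1 and 50.3% for all rows. Among hosts, 12 of 17 snoRNA host rows (70.6%) and 4 of 7 microRNA host rows were negative in the authors' deposited table. These classes follow the symbols. The annotation places a microRNA but no snoRNA in Snhg20 on its strand, and no small RNA in Mir99ahg. No test was made of the difference between classes, since rows share libraries.

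Snhg14, a very long imprinted transcript that hosts the Snord115 and Snord116 clusters and runs antisense to Ube3a in neurons, had the members' lowest log2 fold changes. Its gene spans chr7:59272737-60450177 on the minus strand. The row toward its 3′ end, matched to a transcript at chr7:59307924-59324149, averaged 650.9 normalized counts in the authors' deposited table, with a fold change of -0.20 on the log2 scale (SE 0.106, unadjusted p 0.0577, DESeq2 adjusted p 0.9997). The second row, matched at chr7:59969577-59974431, averaged 380.4 in the authors' deposited table and stood at -0.21 on the same scale (SE 0.110, unadjusted p 0.0562). Neither row passed the test, and because both come from 1 gene they are not independent.

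Other rows within the Snhg14 gene had values of either sign. Ube3a, the imprinted ubiquitin ligase gene on the opposite strand, stood at -0.17 (log2, unadjusted p 0.0912) in the authors' deposited table. Its 3′ end overlaps the 3′ Snhg14 row, and the strand setting of the counting is not given, so reads of the pair cannot be told apart. Snrpn encodes a spliceosomal SmN protein, and its RefSeq bounds overlap Snhg14 on the same strand. Its row had -0.31 (unadjusted p 0.00086, DESeq2 adjusted p 0.9997) in the authors' deposited table at a mean of 29.9. Snurf lies inside the Snrpn bounds on the same strand, so that row need not hold all reads of Snrpn. Ipw was at 0.00 and Snurf at 0.05 in the authors' deposited table, with means of 3396 and 7448, and Gm7367 was at -0.04. The annotation places 205 snoRNAs inside Snhg14, and none had a row among those analysed here.

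**Figure D2:**
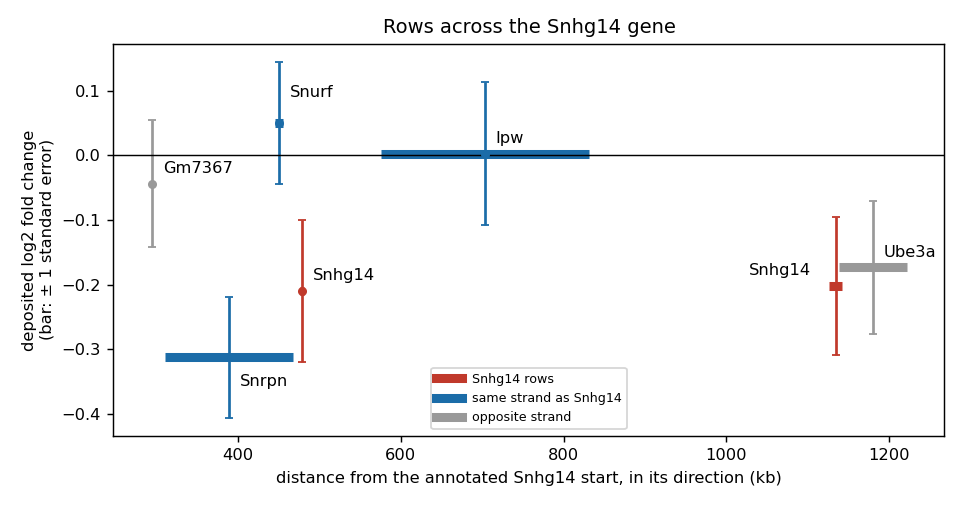
Deposited log2 fold change with bars of 1 standard error (y axis) of the rows in the Snhg14 gene, by distance in kb from its annotated start in its direction (x axis). The 2 Snhg14 rows are at -0.21 and -0.20, while Ipw, which lies between them, is at 0.00.

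The other snoRNA hosts lay closer to 0. Gas5, a growth-arrest RNA that hosts box C/D snoRNAs, averaged 355.8 normalized counts in the authors' deposited table, with a log2 value of -0.11 (SE 0.0963, unadjusted p 0.271). The GENCODE transcript it was matched to here retains an intron, and whether the authors' count holds unspliced reads is not known. The Gas5 gene overlaps Zbtb37 on the opposite strand. Snhg4 was at -0.11 (unadjusted p 0.314) and Snhg18 at -0.09 (unadjusted p 0.242) in the authors' deposited table. The positive end was held by Snhg12, host of 3 Snora genes and Snord99, at 0.14 (unadjusted p 0.21), and by Snhg8, host of Snora24, at 0.09 in the authors' deposited table.

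The remaining snoRNA hosts lay between those values. In the authors' deposited table, Snhg1, Snhg3, Snhg6, Snhg7, Snhg10, Snhg16 and Snhg17 had log2 fold changes from -0.07 to -0.02. Snhg5, Snhg15 and Snhg20 had values from 0.03 to 0.04 in the authors' deposited table. Snhg10, Snhg15 and Snhg18 had mean normalized counts under 10 in the authors' deposited table, and Snhg6 overlaps Mcmdc2 on the opposite strand.

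MicroRNA hosts include the source of miR-124, a microRNA enriched in neurons, and of miR-9. Mir124a-1hg was the most abundant host at 1496 normalized counts, and its log2 fold change was -0.09 (SE 0.102, unadjusted p 0.369) in the authors' deposited table, while Mir124-2hg, with another copy of the same microRNA, was at 0.09 (unadjusted p 0.355). Mir22hg was at 0.02 (SE 0.103, unadjusted p 0.870), Mir9-3hg at 0.01 and Mir99ahg at -0.02 in the authors' deposited table. Mir100hg had 2 rows, at -0.08 with a mean of 265.6 and at -0.05 with a mean of 8.37 in the authors' deposited table. The mature microRNAs below lie inside 3 of these hosts and were taken from RefSeq on GRCm38, with the seed (bases 2 to 8), which pairs with target messages, in capitals. Of 9 matched, no pair shares a seed, and none was itself counted in a row of its own. They are shown for 5 of the 9.
miR-9-5p: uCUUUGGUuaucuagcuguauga
miR-22-3p: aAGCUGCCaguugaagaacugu
miR-100-5p: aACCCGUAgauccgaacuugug
miR-125b-5p: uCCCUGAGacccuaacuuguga
let-7a-2-3p: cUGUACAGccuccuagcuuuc

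The RNase RNAs were among the most abundant rows. Rpph1 averaged 16668 normalized counts in the authors' deposited table, rank 22 of 15978 rows, and its log2 fold change was -0.14 (SE 0.0742, unadjusted p 0.0687, DESeq2 adjusted p 0.9997). Rmrp averaged 16350 in the authors' deposited table, rank 26, and its log2 fold change was 0.00 (SE 0.109, unadjusted p 0.967). Per kb of length Rmrp ranked 1 and Rpph1 2 of 15752 rows with a length, at 59453 and 51287 mean normalized counts per kb. Only 5.8% of the 500 rows nearest in abundance had a smaller standard error than Rpph1, against 94.2% for Rmrp. If the fold changes are shrunken, this need not mean that Rpph1 was the more precisely estimated.

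Other small RNAs were less abundant. Per kb, Scarna13 had 2585 (rank 98), Snord17 1990 (rank 164), Scarna6 1588 (rank 228) and Snora74a 1218 (rank 339) mean normalized counts in the authors' deposited table. Terc averaged 2.72 normalized counts in the authors' deposited table with a log2 value of -0.01, and Vaultrc5, a vault RNA, averaged 4.12 with -0.08 (SE 0.0567, unadjusted p 0.138). Mirt1 averaged 7.57 in the authors' deposited table, with a log2 value of 0.02 (SE 0.0722, unadjusted p 0.776). The members' means sum to 39106, 0.424% of all rows in the authors' deposited table. The median per kb was 47.6 for hosts, 213.6 for small RNAs and Mirt1 and 60.3 for all rows with a length.

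**Figure D3:**
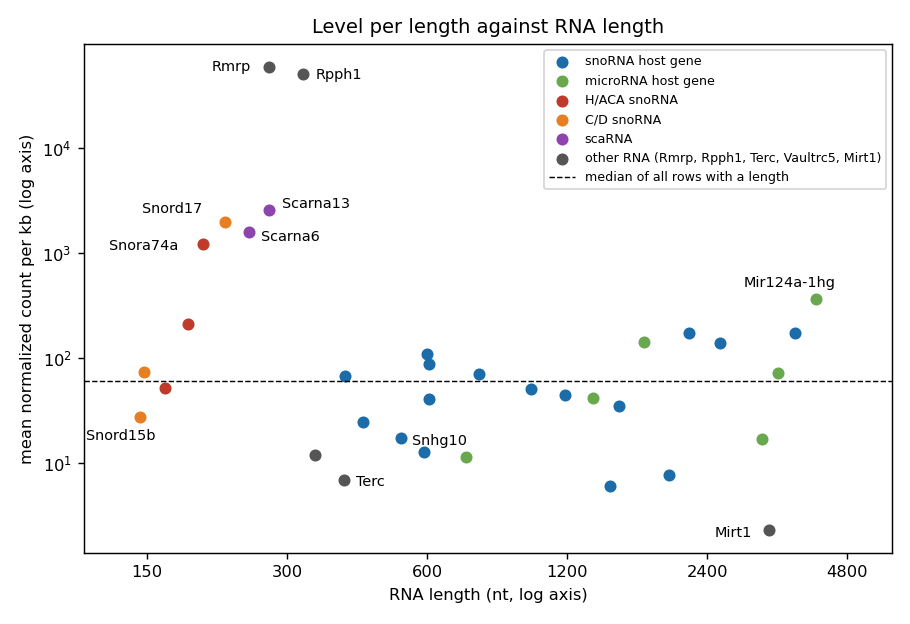
Mean normalized count per kb (y axis, log scale) against RNA length in nt (x axis, log scale) of the members with a length, coloured by class. Rmrp (59453) and Rpph1 (51287) lie far above the other members, and the dashed line is the median of all rows with a length.

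The box C/D members were Snord15b at -0.10 (SE 0.0562, unadjusted p 0.0806, mean 4.01) and Snord15a at -0.09 (SE 0.0715, unadjusted p 0.216, mean 11.0) in the authors' deposited table. Snord17 averaged 439.8 in the authors' deposited table and stood at 0.08 (SE 0.106, unadjusted p 0.443). All 3 box H/ACA members were positive in the authors' deposited table. Snora23 averaged 39.3 normalized counts in the authors' deposited table and stood at 0.07 (SE 0.0765, unadjusted p 0.341). Snora81 averaged 8.54 in the authors' deposited table and stood at 0.02 (SE 0.0508, unadjusted p 0.717), and Snora74a averaged 241.2 and stood at 0.01 (SE 0.0800, unadjusted p 0.923). Their standard errors were small, with 1.6 to 2.4% of the 500 rows of like abundance below them. Since the fold changes may be shrunken, this need not mean precise estimates. Of the scaRNAs, Scarna13 averaged 710.8 and stood at -0.00 (SE 0.105, unadjusted p 0.983) in the authors' deposited table, and Scarna6 averaged 393.9 and stood at 0.02 (SE 0.102, unadjusted p 0.843).

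Inside another row's gene on the same strand lie 8 of the small RNAs, and unspliced reads of the gene could be counted with them. In the authors' deposited table only 1 of the 8 pairs had the same sign, Scarna13 with Snhg10, and 4 of 8 small RNAs exceeded the containing gene per kb by more than 6 times. Scarna13 had 148.7 times the per-kb mean of Snhg10, Snora74a 27.4 times that of Snhg4, Snord17 9.32 times that of Snx5 and Scarna6 6.67 times that of Atg16l1. Snora23 was level with Ipo7 at 0.996 times, and Snora81 was at 0.028 times Eif4a2, a translation initiation factor gene. Snord15a and Snord15b, both negative, lie in Rps3, a ribosomal protein gene that stood at 0.03 (log2) in the authors' deposited table. Of the other containing genes, Snx5 and Ipo7 were at -0.04, Snhg4 at -0.11, Eif4a2 at -0.09, Snhg10 at -0.02 and Atg16l1 at -0.03 in the authors' deposited table.

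**Figure D4:**
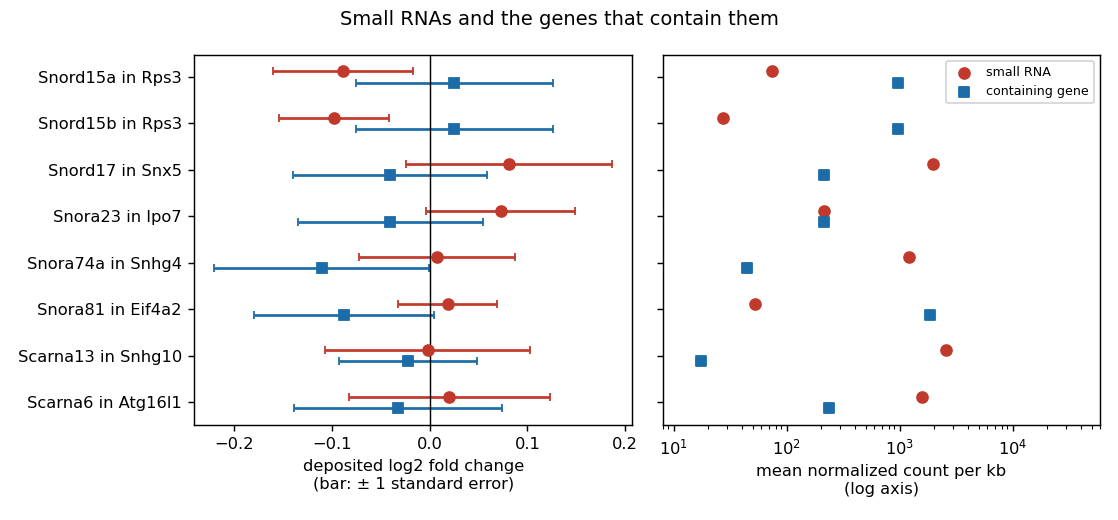
Deposited log2 fold change with bars of 1 standard error (left) and mean normalized count per kb (right, log scale) for 8 small RNAs and the gene that contains each. The 4 small RNAs of higher per-kb mean are Snord17, Snora74a, Scarna13 and Scarna6.

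The length of a small RNA went with whether it had a row. Counted were annotated genes with a noncoding RefSeq transcript whose symbol begins with Mir, Snora, Snord, Scarna, Rnu, Rn7s or Rny, plus Rmrp, Rpph1 and Terc. Long noncoding RNAs and small RNA genes under other symbols were left out, and 114 of the genes counted were snoRNA genes. Of 1298 such genes under 140 nt, 0 had a row, against 11 of 29 at 140 nt or more, of 145 to 397 nt. The 11 are the small RNA members other than Vaultrc5, which the annotation classes as a long noncoding RNA and which was not counted. MicroRNA genes gave 0 of 1180 and snRNA genes 0 of 17. Longer genes without a row among those analysed here include Rn7sk, Rn7s1, Rn7s2, Rnu12, Rnu2-10, the Rnu1 and Rnu3 copies, Snora57, Snora78 and both Snora73 genes inside Snhg3. Within 21 of 22 host genes the annotation places at least 1 small RNA on the same strand. These were 242 snoRNAs or scaRNAs and 12 microRNAs in all, some under symbols outside the count above. Of them, 2 had a row among those analysed here. The level of those small RNAs was not analysed here.

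**Figure D5:**
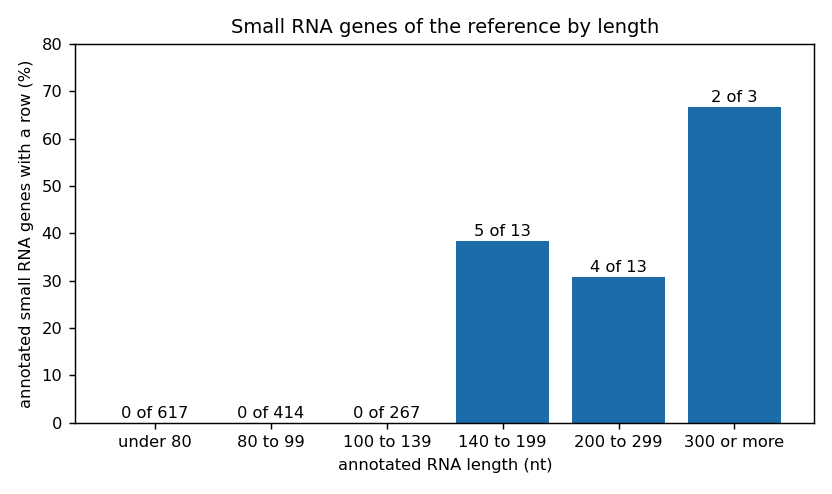
Share of annotated small RNA genes under the counted symbols with a row in the table, by length in nt. No such gene under 140 nt has a row, and the bins above hold 5 of 13, 4 of 13 and 2 of 3.

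Transcripts of several snoRNA hosts are known to begin with a 5′ pyrimidine tract, as messages of the translation machinery do. A C at or within 5 bases after the start, followed by 4 or more pyrimidines on the gene's strand, stood at the start of 5 of 14 snoRNA hosts with a promoter (35.7%), of 2 of 4 microRNA hosts and of 13.4% of 27025 genes. TATAAA or TTATA, 40 to 15 bases before the start on the gene's strand, stood in 5 of 14 snoRNA hosts (35.7%), 0 of 4 microRNA hosts and 3.91% of all genes. A gene with several annotated promoters was counted where any of them held the letters, in hosts and in all genes alike. Snhg7 and Snhg8 have both. Gas5 has 2 annotated promoters: the upstream one, at the start of its gene, holds neither, and the downstream one, shown here, holds both. The windows below run from 10 bases before the RefSeq start to 30 bases from it on the gene's strand, GRCm38, with the tract in capitals. They show 3 hosts with the tract and Snhg14 without it.
Gas5: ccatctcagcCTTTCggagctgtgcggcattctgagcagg
Snhg7: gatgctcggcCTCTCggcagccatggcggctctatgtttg
Snhg8: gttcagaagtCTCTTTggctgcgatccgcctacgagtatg
Snhg14: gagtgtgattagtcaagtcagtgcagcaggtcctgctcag

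Proteins that act with these RNAs were listed for comparison. Of 102 genes in 9 lists, 101 had a row in the authors' deposited table, 50 positive and 51 negative, and 0 had an adjusted p under 0.05 (0% of all rows). At an unadjusted p under 0.05 there was 1 of the 101, beside 1.50% of all rows, so the share was not above that of the table. It was Polr3c, a subunit gene of RNA polymerase III, the enzyme that makes Rmrp and Rpph1, with 0.25 on the log2 scale (SE 0.108, unadjusted p 0.0192, DESeq2 adjusted p 0.9997) in the authors' deposited table. By list, the positive and negative counts in the authors' deposited table were 9 and 4 for box C/D particle and assembly proteins, 4 and 5 for box H/ACA and scaRNP proteins, 4 and 7 for RNase P and MRP proteins, 1 and 6 for the signal recognition particle and 3 and 4 for the 7SK particle. They were 0 and 5 for Ro, La and vault proteins, 6 and 7 for microRNA processing, 4 and 6 for nonsense-mediated decay and 19 and 7 for RNA polymerase III. Beside these counts, 52.6% of all rows were negative. Whether any list was shifted was not tested.

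The 2 genes of smallest p in each list had fold changes of either sign. In the authors' deposited table, the RNase P subunit genes Rpp14 and Rpp40 were at -0.14 and 0.10, the C/D factors Znhit6 and Nolc1 at 0.09 and 0.08, and Tert and Naf1 at 0.06 and -0.07. Srp54a and Srp54b, near-identical copies whose reads can be split between them, were at -0.10 and -0.05, and Hexim2 and Hexim1, which bind 7SK, at -0.10 and 0.07. Ro60 and Parp4 were at -0.13 and -0.09, and Polr3g at 0.12 beside Polr3c in the authors' deposited table. Drosha, which cuts microRNA precursors, was at -0.11 and Tarbp2 at 0.11, and the decay factors Smg1 and Upf3a at -0.11 and 0.12 in the authors' deposited table. Standard errors of these 18 genes ran from 0.0738 to 0.110 and their unadjusted p from 0.0192 to 0.615.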

How the data were processed

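RNA from mouse brain was extracted with Trizol and made into strand-specific libraries without poly(A) selection, per the labels' protocols. Trimmomatic, Bowtie2, DESeq and DESeq2 are named for the authors' processing, with build mm10, per the submitters' processing notes, and nothing on versions, read counter, annotation or filters was found in the sources used here. Deposited by the authors in 1 table were the mean normalized count, a signal, the log2 fold change with its standard error, the Wald statistic, a score, and the p-value with its adjusted p-value, per the file headers. Rows were named from RefSeq GRCm38.p6 (15853 rows) and GENCODE vM21 (77), leaving 48 without a name; 3 members were named by GENCODE. The members and all lists were chosen with earlier results of these data known. Every member may be named. Means, standard errors and p are given for the 3 of highest mean and the 2 of smallest unadjusted p in each class, with all host genes as 1 class; of each partner list the 2 genes of smallest p are named. Of the members, 28 had a mean of 10 or more. The authors' test is the main one; as alternatives, p was adjusted again over rows with a mean of 10 or more, and recomputed from the statistic scaled to its own median and spread. Intervals are Wilson at 95%. Levels per kb divide the mean by RNA length. A polynomial of degree 3 in transcript GC content, fitted over all rows, gave the GC trend, for which 34 members had a value. Work was done in Python 3.11.15 with pandas 2.3.3 and scipy 1.17.1.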

Additional observations from a re-analysis of the deposited data

How the results depend on the processing

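The alternatives were a mean normalized count of at least 10 or 100, rows of 1 copy and rows outside other rows. Another took off the trend of the statistic with GC content. Every member had 1 copy, so that setting left out no member and could not change a result. Alternatives without Mirt1, with 1 row per gene and without Snhg14 were chosen after seeing the data. The negative share of the members stayed between 53.8 and 65.5% over all of them, and the host minus small RNA difference of medians between -0.10 and -0.00 on the log2 scale. The count at an adjusted p under 0.05 was 0 of the members also when adjusted over rows with a mean of at least 10, and when the statistic was scaled to its own median and spread, where 4 of 37 members (10.8%), 2 of them rows of Snhg14, had an unadjusted p under 0.05 beside 5.11% of all rows. No paired analysis was possible because the table holds no values per mouse and the genotypes share no replicate numbers; leaving out each mouse was not analysed for the same reason. The low counts of 9 members (a mean under 10) limit what could be detected for them, and the prior the fold changes may carry was not tested.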
